A study of Homo sapiens with 9 samples.

Results

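DKK1 and 9 other genes that modulate or report WNT signalling were followed through 9 arrays of HSF-6 cells, a human embryonic stem cell line. The genes are the secreted proteins DKK1, DKK3, RSPO3, SFRP1, SFRP2 and FRZB, the WNT carrier WLS, the receptor FZD7, and the intracellular LEF1 and AXIN2. Every probe set annotated to a single 1 of these 10 genes was taken, which gave 30 of the 54613 probe sets left without the array's controls. The genes were chosen by the signals measured on these same arrays, so the differences between groups are given for them as a description with no p-value. Where the text says that one of them was called, this places it in a fit over all probe sets and is not evidence about the gene. The groups were HSF-6(S9) cells in butyrate and DZNep, HSF-6(8) cells in butyrate and DZNep, and HSF-6(8) control cells without either agent, with 3 arrays each. Every group was grown for 6 days and collected after 11 passages. Butyrate blocks the enzymes that take acetyl groups off histones. DZNep blocks the hydrolysis of S-adenosylhomocysteine, whose build-up slows methyl transfer, including that by the histone methyltransferase EZH2. There was no untreated HSF-6(S9) group, so subline and treatment cannot be told apart wherever HSF-6(S9) is set against the control. Whether a group's 3 arrays came from separate cultures is not in the labels, so the spread between arrays may be technical.

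WNT proteins are lipid-modified ligands that the carrier WLS takes to the cell surface, where they bind frizzled receptors such as FZD7 together with the coreceptors LRP5 and LRP6. Binding stops the degradation of beta-catenin, which then enters the nucleus and activates genes with the DNA-binding factors LEF1, TCF7, TCF7L1 and TCF7L2. DKK1 blocks the coreceptors, the secreted frizzled-related proteins SFRP1, SFRP2 and FRZB bind the ligands, and R-spondins such as RSPO3 keep frizzled receptors at the surface. In human embryonic stem cells beta-catenin signalling is known for its part in the exit to primitive streak and its mesoderm and endoderm derivatives, and DKK1 and AXIN2 are themselves targets of the pathway and feed back on it.

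The promoters of the 4 genes that stood furthest from the control are shown so that the sequence around their starts can be set beside their signals. Each sequence runs from 250 bases before the annotated start through 50 bases from it, on the gene's strand, from RefSeq on build GRCh38.p14. They lie at chr10:52314031-52314330 on the plus strand for DKK1, chr4:108166252-108166551 on the minus strand for LEF1, chr1:68232474-68232773 on the minus strand for WLS and chr6:127118421-127118720 on the plus strand for RSPO3. Capitals mark the letters CTTTGA, the core of the LEF1 and TCF recognition sequence, or their reverse complement TCAAAG.
DKK1: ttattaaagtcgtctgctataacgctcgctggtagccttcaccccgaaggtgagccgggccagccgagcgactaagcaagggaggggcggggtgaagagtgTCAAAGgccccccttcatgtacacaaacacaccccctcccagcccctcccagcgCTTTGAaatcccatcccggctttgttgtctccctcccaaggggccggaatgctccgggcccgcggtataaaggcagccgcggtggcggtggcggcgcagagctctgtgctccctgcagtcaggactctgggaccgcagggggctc
LEF1: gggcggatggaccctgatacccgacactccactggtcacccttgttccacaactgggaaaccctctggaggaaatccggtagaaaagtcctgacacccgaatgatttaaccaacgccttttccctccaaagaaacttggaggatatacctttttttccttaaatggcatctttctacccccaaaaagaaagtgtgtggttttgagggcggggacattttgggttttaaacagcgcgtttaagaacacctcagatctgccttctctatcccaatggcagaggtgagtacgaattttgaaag
WLS: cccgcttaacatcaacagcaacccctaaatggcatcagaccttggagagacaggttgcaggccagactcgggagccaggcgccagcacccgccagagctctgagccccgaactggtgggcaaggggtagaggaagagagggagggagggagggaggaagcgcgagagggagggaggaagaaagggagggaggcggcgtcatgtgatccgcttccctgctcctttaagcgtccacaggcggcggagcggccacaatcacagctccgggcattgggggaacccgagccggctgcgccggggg
RSPO3: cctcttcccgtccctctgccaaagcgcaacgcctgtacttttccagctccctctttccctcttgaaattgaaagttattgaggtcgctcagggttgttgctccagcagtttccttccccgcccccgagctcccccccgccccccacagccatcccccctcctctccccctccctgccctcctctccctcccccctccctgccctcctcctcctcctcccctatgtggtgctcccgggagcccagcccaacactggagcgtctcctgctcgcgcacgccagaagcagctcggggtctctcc
The DKK1 window held 2 of these matches, with first bases at positions -149 and -95 counted from 0 at the start, the first on the minus strand and the second on the plus strand. The windows of LEF1, WLS and RSPO3 held 0 matches. Of 35116 RefSeq promoters of this length, 12.9% held a match on either strand. A match describes letters in the window and was not tested as a binding site. The DKK1 window held 20 CG dinucleotides, the WLS window 19, the RSPO3 window 13 and the LEF1 window 9, against a median of 14 over all promoters. RefSeq lists a second WLS start, whose window at chr1:68232497-68232796 held 15 CG dinucleotides and 0 matches.

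DKK1 was far higher on the treated than on the control arrays. Its differences were the widest of the 10 genes with 16 added before the logarithm, while with 1 added LEF1 exceeded it in treated HSF-6(S9), at 4.04 against 3.98. This secreted inhibitor, read by probe set 204602_at, gave signals of 2752, 2122 and 3464 in treated HSF-6(S9), 2906, 2870 and 3736 in treated HSF-6(8), and 209, 197 and 123 in HSF-6(8) control. All 6 treated arrays lay far above all 3 control arrays, and the treated sublines overlapped each other. The means were 2779 ± 671 in treated HSF-6(S9), 3171 ± 490 in treated HSF-6(8) and 176 ± 46.9 in control (SD, n = 3 each), a ratio of 15.8 for treated HSF-6(S9) and 17.98 for treated HSF-6(8) over the control. Signals are the deposited linear array intensities, and differences are on the scale of log2(signal + 16). The difference from the control was 3.86 ± 0.26 for treated HSF-6(S9) and 4.07 ± 0.26 for treated HSF-6(8) (SE), and that between treated HSF-6(S9) and treated HSF-6(8) was -0.21 ± 0.26. The 2 comparisons with the control use the same 3 control arrays. In RNA from whole cultures, a change in the number of cells that make a transcript and a change in its amount per cell cannot be told apart.

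**Figure D1:**
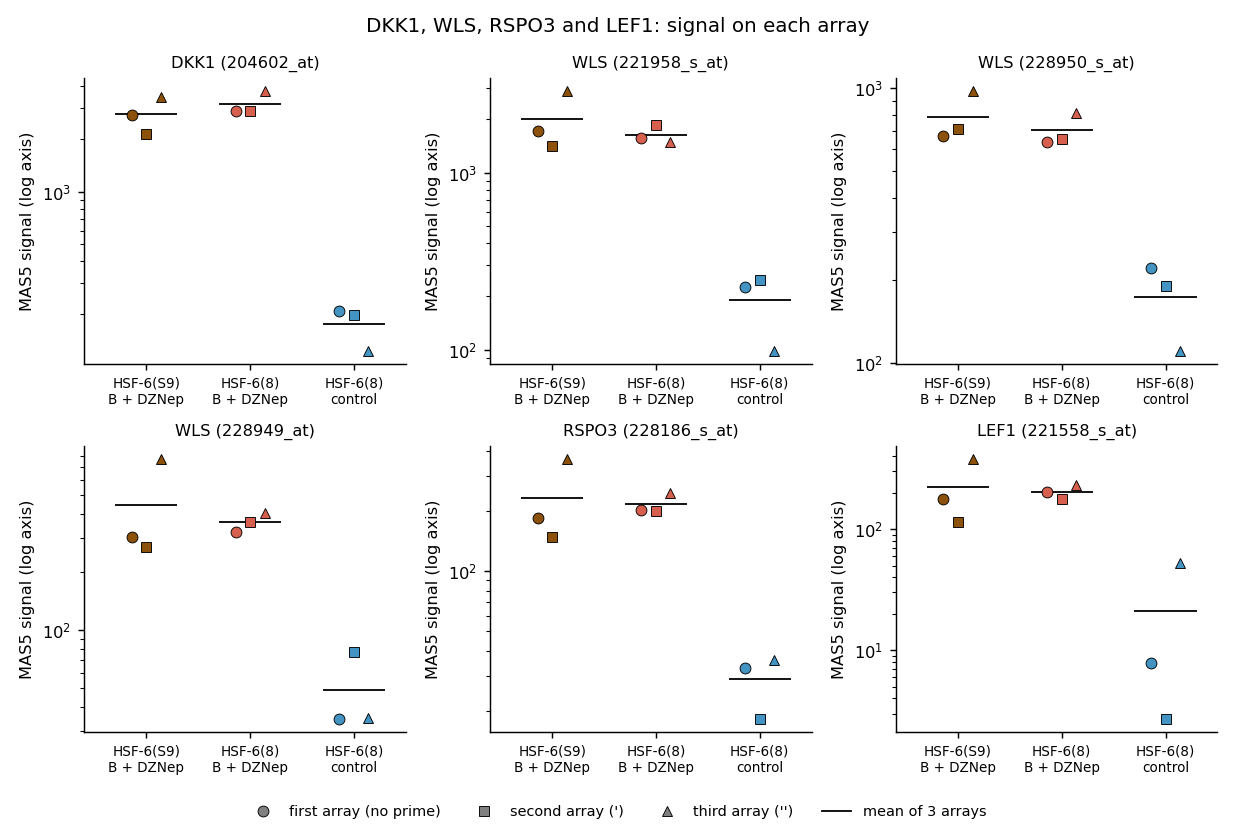
Signal (log axis) on each of the 9 arrays for the 6 probe sets of DKK1, WLS, RSPO3 and LEF1 that passed the filter on low signal, with treated HSF-6(S9), treated HSF-6(8) and HSF-6(8) control from left to right; points are arrays, with a shape for each prime mark, and bars are means. For DKK1 the treated arrays run from 2122 to 3736 and the control arrays from 123 to 209, and in each panel no treated array reaches down to the control arrays.

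WLS, the carrier that WNT proteins need to leave the cell, was higher on every treated array by each of its 3 probe sets. The brightest, 221958_s_at, had signals of 1706, 1405 and 2867 in treated HSF-6(S9), 1567, 1845 and 1480 in treated HSF-6(8), and 225, 247 and 98.1 in control. The third control array was the lowest of the 9 and the third treated HSF-6(S9) array the highest. Its difference from the control was 3.31 ± 0.36 in treated HSF-6(S9) and 3.08 ± 0.36 in treated HSF-6(8). Probe set 228949_at gave 304.5, 269 and 766 in treated HSF-6(S9), 323, 362 and 402 in treated HSF-6(8), and 34.6, 76.9 and 35.0 in control. Probe set 228950_s_at gave 669, 711 and 975 in treated HSF-6(S9), 639, 656 and 816 in treated HSF-6(8), and 221, 190.1 and 110.4 in control. The 3 probe sets thus ran the same way, with differences of 2.74 ± 0.39 and 2.11 ± 0.27 for the dimmer pair in treated HSF-6(S9) and of 2.60 ± 0.39 and 1.96 ± 0.27 in treated HSF-6(8).

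RSPO3, an R-spondin that strengthens the response to WNT, had signals of 184, 149 and 364.5 in treated HSF-6(S9), 202, 201 and 246 in treated HSF-6(8), and 32.6, 18.1 and 35.9 in control by its single probe set, 228186_s_at. Groups did not overlap with the control, and all 3 control values lay below their own array's median. The difference from the control was 2.40 ± 0.31 in treated HSF-6(S9) and 2.39 ± 0.31 in treated HSF-6(8).

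LEF1, the DNA-binding partner of beta-catenin, gave signals of 177, 114 and 376.5 in treated HSF-6(S9), 201, 176.5 and 232 in treated HSF-6(8), and 7.88, 2.70 and 52.4 in control by probe set 221558_s_at. The treated arrays again lay above the control arrays, which were below their own array's median and differed widely among themselves. The difference from the control was 2.78 ± 0.51 in treated HSF-6(S9) and 2.80 ± 0.51 in treated HSF-6(8). The size depends on what is added before the logarithm, with 4.04 in treated HSF-6(S9) and 4.07 in treated HSF-6(8) when 1 was added, and 1.70 and 1.69 in the same order of groups when 64 was added. The other 2 LEF1 probe sets, 210948_s_at and 221557_s_at, were at or below 68.9 on every array and above the array median on none.

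Of the 30 probe sets, 20 had at least 3 of 9 arrays above their own median and entered a limma fit over all 29328 probe sets that met this filter. The 10 that did not enter, from DKK3, LEF1, SFRP1, FRZB and AXIN2, had signals from 0.797 to 115.9 with a median of 18.2. The closest of them to the filter was DKK3 221127_s_at with 2 arrays above the median, while the probe sets of LEF1 and RSPO3 entered with 6 arrays each, all of them treated, so that they met the filter only through the groups in which they were high. A probe set was called when its adjusted p (limma, Benjamini-Hochberg) was under 0.05 and it differed at least 2-fold. In treated HSF-6(8) against its control, 5 of the 20 were called higher, from DKK1, WLS and RSPO3, where 0.273% of all probe sets fitted were called higher, and 0 were called lower, where the background was 0.0273%. In treated HSF-6(S9) against HSF-6(8) control, the 5 called higher came from the same 3 genes, with a background of 0.314%, and 0 were called lower, with a background of 0.075%. These calls use the contrast that chose the genes, so nothing is read from them.

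Groups that do not overlap were more frequent than calls. In treated HSF-6(8), 9 of the 20 probe sets, from 7 genes, were higher on every array than on any control array, where 8.82% of all probe sets fitted were, and 0 were lower on every array, where 6.04% were. In treated HSF-6(S9), 12 of the 20, from 9 genes, were higher on every array than in the control, where 9.07% of all were, and 0 were lower, where 8.35% were. The median difference over the 20 was 0.645 in treated HSF-6(S9) and 0.46 in treated HSF-6(8), against -0.014 and 0.018 over all probe sets fitted in these comparisons. The gene absent from both of these counts was SFRP2. The counts and medians use the contrasts that chose the genes, and several probe sets can come from 1 gene. LEF1 and RSPO3 also met the filter only through the treated arrays, so nothing is read from the distance to the background.

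**Figure D2:**
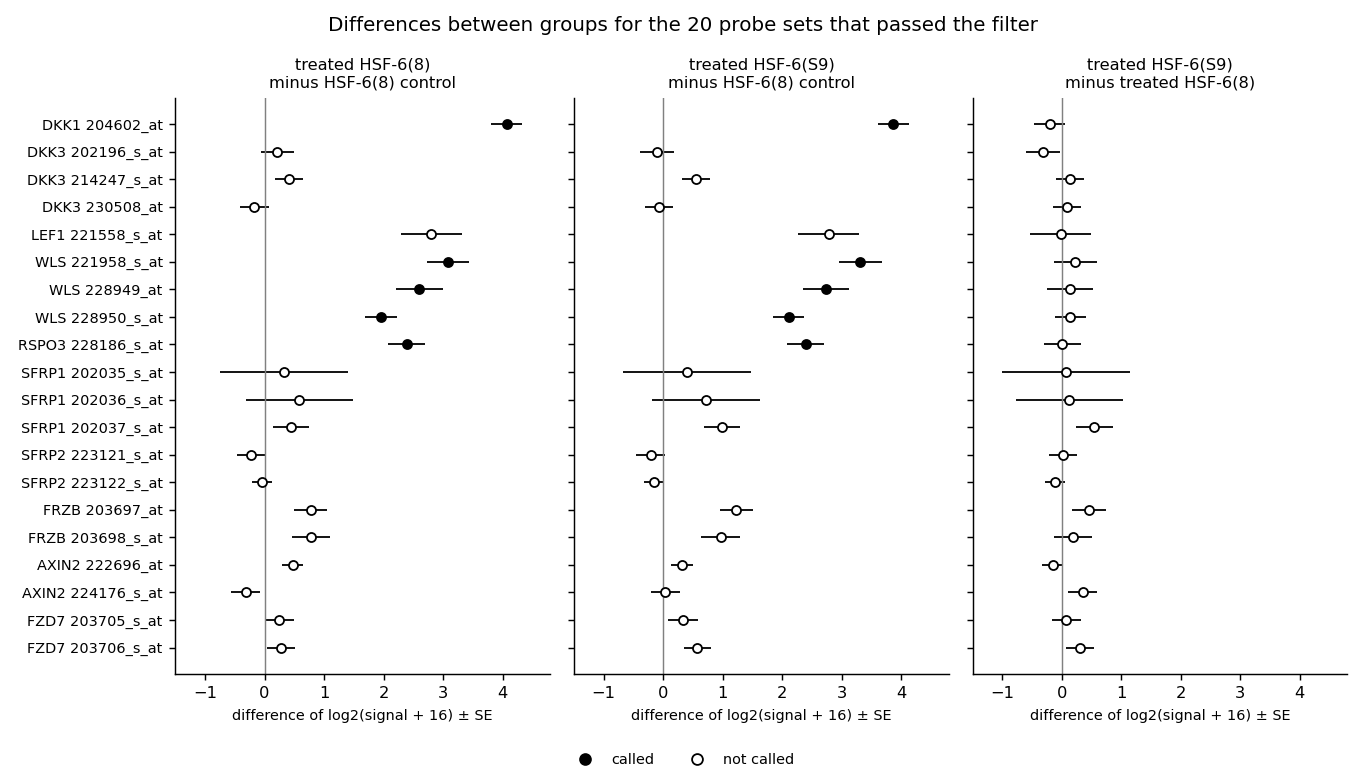
Log2 difference with its SE for the 20 probe sets that entered the fit, 1 panel for treated HSF-6(8) minus control, 1 for treated HSF-6(S9) minus control and 1 for the treated sublines, HSF-6(S9) minus HSF-6(8); filled points were called. DKK1, at 4.07 and 3.86 against the control, stands furthest right, followed by WLS, LEF1 and RSPO3, and in the comparison of the treated sublines no point is filled.

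The remaining secreted inhibitors differed less from the control. SFRP1, which binds WNT ligands, had by its brightest probe set 202037_s_at signals of 8297, 11053 and 10180 in treated HSF-6(S9), 8601, 8831 and 3951 in treated HSF-6(8), and 5174, 5260 and 4350 in control. Treated HSF-6(S9) lay wholly above the control, while the third treated HSF-6(8) array was the lowest of the 9. The differences from the control were 0.99 ± 0.31 in treated HSF-6(S9) and 0.45 ± 0.31 in treated HSF-6(8), neither called. The dimmer SFRP1 probe set 202035_s_at gave 161, 90.7 and 1744 in treated HSF-6(S9), 156, 276 and 555 in treated HSF-6(8), and 95.7, 137 and 822 in control. Probe set 202036_s_at gave 159, 258 and 1470 in treated HSF-6(S9), 243, 352 and 555 in treated HSF-6(8), and 85.3, 169 and 841 in control. On these 2 probe sets the third array was the highest in every group, which the brightest probe set does not show, and the SE of the differences reached 1.08. With all arrays, the difference of treated HSF-6(S9) from the control was 0.40 for 202035_s_at and 0.71 for 202036_s_at. Leaving out array 3 of treated HSF-6(S9) alone gave -0.82 and -0.21, but the control then kept its own high array, at 822 and 841. With array 3 left out of every group, the differences were 0.07 and 0.68, so the sign did not change. The array's ribosomal RNA control probe set was also high on the third arrays, at 1517 in treated HSF-6(S9), 850.2 in treated HSF-6(8) and 963.5 in control against 385.5 to 541.5 on the other 6, and its part in these signals was not tested.

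FRZB, a further ligand-binding inhibitor, had by 203697_at signals of 398, 468 and 559 in treated HSF-6(S9), 366, 433 and 245 in treated HSF-6(8), and 233, 227 and 132 in control. Every treated array lay above every control array, though the third treated HSF-6(8) array was close to the highest control. The difference was 1.23 ± 0.28 in treated HSF-6(S9) and 0.77 ± 0.28 in treated HSF-6(8), and by 203698_s_at it was 0.96 ± 0.32 and 0.78 ± 0.32 in the same order of groups, none of them called. SFRP2, of the same family, had 4123, 4222 and 2680 in treated HSF-6(S9), 4067, 3648 and 3026 in treated HSF-6(8), and 4636, 4574 and 3435 in control by 223121_s_at. All 3 groups overlapped, and the difference was -0.21 ± 0.24 in treated HSF-6(S9) and -0.23 ± 0.24 in treated HSF-6(8). By 223122_s_at it was -0.15 ± 0.17 in treated HSF-6(S9) and -0.04 ± 0.17 in treated HSF-6(8).

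**Figure D3:**
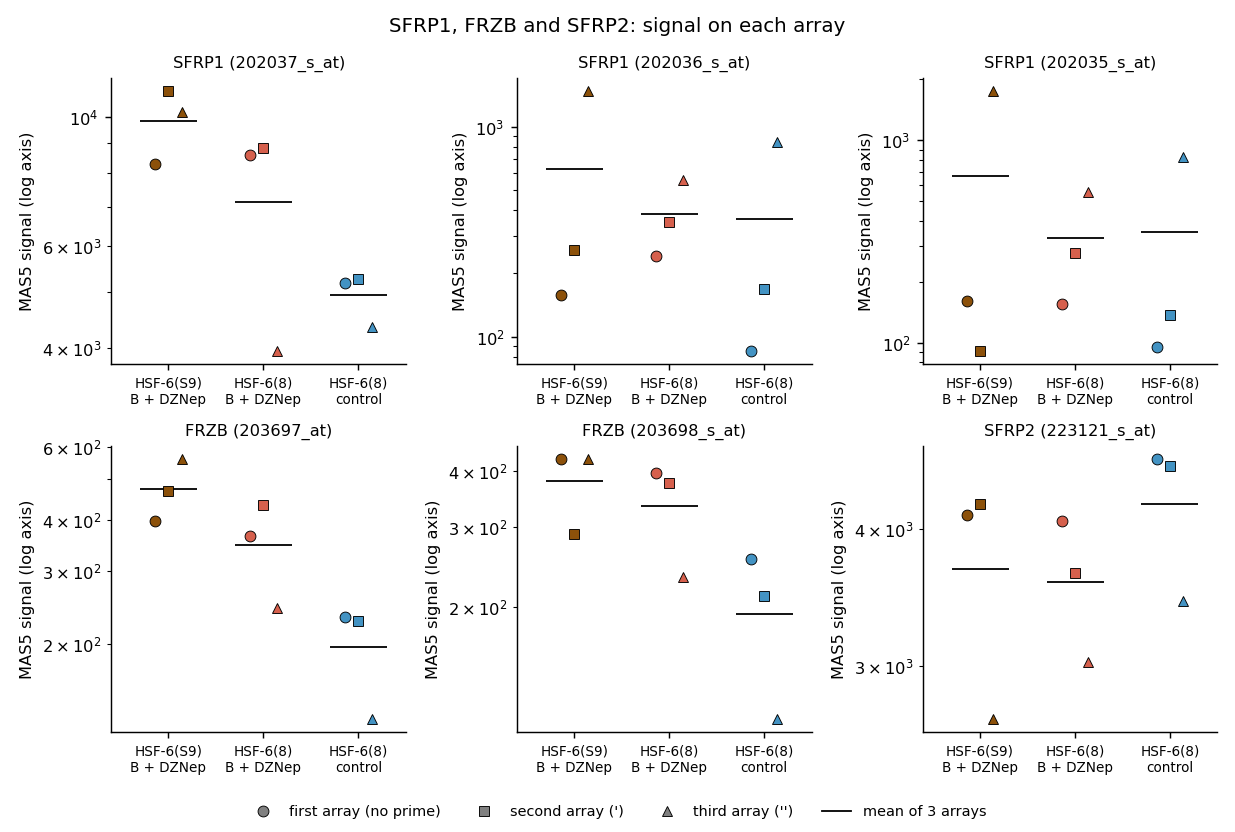
Signal (log axis) on each array for 3 probe sets of SFRP1, 2 of FRZB and the brighter of SFRP2, with treated HSF-6(S9), treated HSF-6(8) and HSF-6(8) control from left to right. The SFRP2 groups overlap, FRZB 203697_at is above 233 on every treated array, and on the 2 dimmer SFRP1 probe sets the third array of each group is the highest, up to 1744.

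DKK3, a dickkopf-family protein that does not act on the coreceptors as DKK1 does, was bright on 214247_s_at, with 650.3, 961 and 1138 in treated HSF-6(S9), 696, 862 and 878 in treated HSF-6(8), and 641, 648 and 525 in control. The treated arrays did not overlap with the control, by a narrow margin, and the difference was 0.56 ± 0.23 in treated HSF-6(S9) and 0.41 ± 0.23 in treated HSF-6(8). The other 2 DKK3 probe sets in the fit did not separate from the control, with differences from -0.17 to 0.22, so the probe sets of this gene disagree.

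Among the receptor and the intracellular feedback gene, differences were small beside high signals. AXIN2, a scaffold of the beta-catenin destruction complex, had by 222696_at signals of 2035, 1764 and 2203 in treated HSF-6(S9), 2109, 2013 and 2585 in treated HSF-6(8), and 1481, 1609 and 1703 in control. Every treated array was above every control array, with a difference of 0.32 ± 0.18 in treated HSF-6(S9) and 0.47 ± 0.18 in treated HSF-6(8). The dimmer AXIN2 probe set 224176_s_at overlapped between groups, at 0.04 ± 0.24 in treated HSF-6(S9) and -0.31 ± 0.24 in treated HSF-6(8). FZD7, a frizzled receptor, had by 203706_s_at 14877, 17011 and 13297 in treated HSF-6(S9), 14790, 13785 and 8845 in treated HSF-6(8), and 10688, 10859 and 8755 in control. Treated HSF-6(S9) did not overlap with the control and treated HSF-6(8) did through the third array, with differences of 0.58 ± 0.23 and 0.28 ± 0.23 for these groups. By the second FZD7 probe set, 203705_s_at, signals were 11272, 7406 and 9351 in treated HSF-6(S9), 10046, 10639 and 6232 in treated HSF-6(8), and 7698, 7647 and 6712 in control. There both treated groups overlapped with the control, with differences of 0.33 ± 0.25 in treated HSF-6(S9) and 0.25 ± 0.25 in treated HSF-6(8).

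Between the treated sublines, no difference in the 10 genes was called. Of the 20 probe sets, 0 were called in either direction between treated HSF-6(S9) and treated HSF-6(8), where 0% of all probe sets fitted were called higher and 0% lower. At an unadjusted p under 0.05 this comparison held 712 of the 29328 probe sets (limma). No probe set was higher on every HSF-6(S9) array, where 2.41% of all were, and 1 was lower on every array, where 4.05% were. That probe set was DKK3 202196_s_at, with 184, 138 and 170.1 in treated HSF-6(S9) and 236, 197 and 192 in treated HSF-6(8), a difference of -0.32 ± 0.28. The median difference over the 20 was 0.11, against -0.036 over all probe sets fitted. A missed threshold does not show that the sublines are alike.

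The calls of the 10 genes moved with the setting, and as these calls use the contrast that chose the genes, nothing about the genes' reliability is read from this. DKK1 was called in all 18 alternatives in both comparisons with the control, with values from 3.47 to 4.04 in treated HSF-6(S9) and from 3.73 to 4.20 in treated HSF-6(8). WLS 221958_s_at was called in all 18 in treated HSF-6(S9), and in treated HSF-6(8) in 17, the exception being the fit without the second treated HSF-6(8) array, where its difference was 2.99. WLS 228949_at was called in 9 of 16 in treated HSF-6(S9) and 7 of 16 in treated HSF-6(8), with values without single arrays of 2.28 to 3.03 and 2.45 to 2.89. Both calls were lost with no filter and with first and second arrays only (2.14 and 2.38). In treated HSF-6(S9) the call was also lost without the first or the third control array, the first or the second array of treated HSF-6(8), or the first array of treated HSF-6(S9). In treated HSF-6(8) it was also lost without any 1 array other than the second or the third of those from treated HSF-6(S9). WLS 228950_s_at was called in 15 of 17 in treated HSF-6(S9), failing without the second control array or the third treated HSF-6(S9) array (1.84 to 2.29 without single arrays). In treated HSF-6(8) it was called in 11 of 17, failing with no filter, with first and second arrays only (1.58), and without the second control array or any 1 of its own arrays (1.69 to 2.15 without single arrays). RSPO3 was called in 13 of 17 in treated HSF-6(S9) and 12 of 17 in treated HSF-6(8). The RSPO3 call was lost in both comparisons without the first or second control array, in treated HSF-6(S9) without its first array or with first and second arrays only (2.16), and in treated HSF-6(8) without any 1 of its 3 arrays, while the values without single arrays stayed between 2.04 and 2.64 in treated HSF-6(S9) and between 2.20 and 2.51 in treated HSF-6(8). LEF1 was not called in the fit over all probe sets, but was called in 5 of 17 alternatives in both comparisons. These were the fit with 1 probe set per gene, the fit with the array mark as a replicate block, the fit with the third arrays as a batch, the fit on first and second arrays alone (2.91 in treated HSF-6(S9) and 3.27 in treated HSF-6(8)), and the fit without the third control array (3.34 and 3.37). With the replicate block, 6 probe sets of the 10 genes were called higher in each comparison with the control, LEF1 being the added gene, where 0.59% of all probe sets fitted were called higher in treated HSF-6(S9) and 0.45% in treated HSF-6(8). No probe set of DKK3, SFRP1, SFRP2, FRZB, AXIN2 or FZD7 was called under any alternative run.

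Markers of stem cells and of other cell types were read on the same arrays. Of 12 pluripotency markers, all 10 with a probe set of their own passed the filter, and their summed signal was 143036 to 232616 in treated HSF-6(S9), 147721 to 161323 in treated HSF-6(8) and 159246 to 227617 in control. Each such sum follows its brightest markers, and single markers can differ from it. NANOG was 4306 to 6503 in treated HSF-6(S9), below all control arrays, which held 8598 to 9070. In treated HSF-6(8) NANOG was 4915 to 8911. SALL4 overlapped, at 2792 to 6661 in treated HSF-6(S9), 3138 to 5929 in treated HSF-6(8) and 1899 to 5642 in control. The sum over 13 endoderm markers, of which FOXA1 was low on most arrays, was 2897, 3194 and 3307 in treated HSF-6(S9), 2759, 3473 and 19657 in treated HSF-6(8), and 1449, 1522 and 1991 in control. The third treated HSF-6(8) array thus stood apart in endoderm markers, and the treated and control groups did not overlap. Without that array, treated HSF-6(8) differed from the control by 3.95 for DKK1, 3.15 for WLS 221958_s_at, 2.71 for LEF1 and 2.30 for RSPO3. The 12 mesoderm and primitive streak markers, of which FOXF1, GSC and LHX1 were low on most arrays, summed to 1681 to 2258 in treated HSF-6(S9), 2026 to 5483 in treated HSF-6(8) and 1703 to 1968 in control. The 9 trophoblast markers, with ELF5 and CDX2 low on most arrays, summed to 2114 to 3666 in treated HSF-6(S9), 2695 to 3164 in treated HSF-6(8) and 1575 to 1728 in control. The 10 neuroectoderm and neural crest markers, with SOX1, OTX1, NEUROG2, ZIC1 and TFAP2B low on most arrays, summed to 6908 to 9406, 6789 to 8453 and 5573 to 6279 in the same order of groups. Most of this sum was NES, at 5418 to 7175, 5494 to 7308 and 5005 to 5624. The 14 stromal markers, with LUM and POSTN low on most arrays, summed to 34971 to 48109, 34955 to 58009 and 28900 to 33883. Members of this list ran in different directions. FN1 was 5491 to 11905, 5900 to 10039 and 2576 to 3676. THY1 was 931 to 1762, 917 to 3393 and 1876 to 3884, and TWIST1 74.2 to 105.3, 50.3 to 191.5 and 110 to 280.5. Single arrays also stood out in some markers. On the third array of treated HSF-6(8), GSC had a signal of 224.9 and LHX1 of 101.5, against 1.9 to 27.9 on the other 8 arrays, and ZIC1 had 192. On the third array of treated HSF-6(S9), SOX1 had 737, against 62 and 6.0 on the other HSF-6(S9) arrays. PAX3 had 1006 there, against 631 and 193 on the other HSF-6(S9) arrays. PAX3 was 282 to 501 in treated HSF-6(8) and 22.7 to 46.2 in control, so every treated array lay above the control arrays. In its list PAX6 separated in the same way, while SOX10 and DCX overlapped with the control. SOX10 was 220 to 277 in treated HSF-6(S9), 231 to 320 in treated HSF-6(8) and 135 to 337 in control. WLS 221958_s_at, RSPO3 and LEF1 also had their highest signals on the third treated HSF-6(S9) array. Without it, treated HSF-6(S9) differed from the control by 3.02 for WLS 221958_s_at, 2.34 for LEF1, 2.04 for RSPO3 and 3.69 for DKK1. The part of these cell types in the WNT values was not tested.

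The rest of the pathway was followed in 105 genes listed by role. Of these, 99 had a probe set of their own and 74 passed the filter. The list left out the genes followed above, among them DKK1, WLS, RSPO3 and LEF1, which were chosen by their signals on these arrays. A lack of calls in the list is thus partly set by how it was made, and does not show that the pathway was otherwise unchanged. None of the 74 was called in treated HSF-6(S9) against control, in treated HSF-6(8) against control, or between the treated sublines (limma, 0 called in each), while 14, 7 and 2 of them had an unadjusted p under 0.05 in these comparisons. These are 18.9%, 9.46% and 2.7% of the 74, against 11.3%, 7.52% and 2.43% of all probe sets fitted. The 74 are each gene's brightest probe set, while all probe sets fitted include dimmer ones of the same genes, so these shares are not like for like. The median difference over the 74 was 0.103 in treated HSF-6(S9) and 0.074 in treated HSF-6(8) against the control, and -0.036 between treated HSF-6(S9) and treated HSF-6(8). The 13 known target genes had medians of 0.432 in treated HSF-6(S9) and 0.677 in treated HSF-6(8) against the control. Over all probe sets fitted the medians were -0.014 and 0.018. Not every target ran this way. MYC was lower on every treated HSF-6(S9) array, at 1149, 858 and 660 against 1498, 1416 and 1872 in control. BAMBI and NKD2 overlapped with the control in both treated groups. In treated HSF-6(8), TBXT and MIXL1 were high on a single array, at 884 and 1541, and its weight in the median was not tested.

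Within each role, the 2 genes with the widest differences are given as values. Among targets, SP5, a transcription factor gene that beta-catenin activates, had 431, 299 and 539 in treated HSF-6(S9), 347, 178.5 and 1771 in treated HSF-6(8), and 120.4, 46.4 and 169 in control, with a difference of 1.88 ± 0.73 (limma adjusted p = 0.373) and 2.11 ± 0.73 (adjusted p = 0.454) in the treated groups in this order. The treated arrays did not overlap with the control arrays, by a narrow margin, while the treated groups overlapped each other. The third treated HSF-6(8) array was the highest of the 9. TNFRSF19, a receptor of the tumour necrosis factor family, had 413.5, 288 and 657 in treated HSF-6(S9), 402, 373 and 195 in treated HSF-6(8), and 86.7, 129 and 118 in control, and its difference in treated HSF-6(S9) was 1.82 ± 0.35 (limma adjusted p = 0.0805). TBXT, the primitive streak factor brachyury, had a signal of 884 on the third array of treated HSF-6(8) and of 21.6 to 116 on the other 8.

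Among receptors, ROR2, a coreceptor for WNT5A, had 251, 128 and 319.5 in treated HSF-6(S9), 252, 262 and 429 in treated HSF-6(8), and 108, 83.4 and 77.5 in control. The treated arrays did not overlap with the control arrays, while the treated groups overlapped each other. The difference from the control was 1.16 ± 0.33 (limma adjusted p = 0.213) in treated HSF-6(S9) and 1.61 ± 0.33 (adjusted p = 0.129) in treated HSF-6(8). The other receptor values were 0.84 for FZD2 in treated HSF-6(S9) and -0.75 for FZD9 in treated HSF-6(8). TLE2, a corepressor that binds LEF1 and TCF factors, differed from the control by 1.20 ± 0.32 (limma adjusted p = 0.181) in treated HSF-6(S9) and 1.38 ± 0.32 (adjusted p = 0.173) in treated HSF-6(8), with TLE3 at 0.66 and TCF7L1 at -0.33 as the next in these comparisons. None of these passed the test.

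Among the ligands, WNT4 had 81.1, 186 and 1081 in treated HSF-6(S9), 114, 82.8 and 73.3 in treated HSF-6(8), and 59.9, 55.0 and 28.7 in control. The third treated HSF-6(S9) array held by far the highest value, and the difference was 2.16 ± 0.72 (limma adjusted p = 0.288) in treated HSF-6(S9) and 0.75 ± 0.72 in treated HSF-6(8). WNT16 differed by -1.48 ± 0.49 in treated HSF-6(S9) (adjusted p = 0.281, limma) and -0.80 ± 0.49 in treated HSF-6(8). Among secreted modulators, CER1, an inhibitor of Nodal, BMP and WNT, differed by -0.86 in treated HSF-6(S9), APCDD1, a membrane-bound WNT inhibitor, by 0.67 in treated HSF-6(S9) and 1.03 in treated HSF-6(8), and NOTUM, an enzyme that removes the WNT lipid, by -1.05 in treated HSF-6(8). The cytoplasmic genes had small values, with CTNNBIP1 at 0.77 and TNKS at 0.40 in treated HSF-6(S9), and APC at 0.28 and AXIN1 at -0.28 in treated HSF-6(8). Between treated HSF-6(S9) and treated HSF-6(8), the widest values per role were 1.41 and -0.69 for WNT4 and WNT16, -1.43 and -0.54 for CER1 and SFRP5, 0.99 and 0.60 for FZD9 and FZD1, 0.63 and 0.41 for CTNNBIP1 and TNKS, 0.39 and 0.37 for TLE3 and TCF7L2, and -1.21 and -1.16 for TBXT and MIXL1. The values of CER1, TBXT and MIXL1 rest on the third treated HSF-6(8) array, without which they were 0.01, -0.23 and 0.32. Single arrays weigh on others too. On that array TNKS had 676, against 1524 and 1478 on its companions, TLE3 had 913, against 1976 and 1738, and CTNNBIP1 466, against 1056 and 799. TCF7L2 had 20391 on the second treated HSF-6(S9) array, against 8869 and 6560 on the others of that group. NOTUM had 6.55 on the first treated HSF-6(8) array, against 37.5 and 106.6 on the others of that group. APCDD1 had 467 on the third treated HSF-6(8) array, against 212 and 128 on its companions.

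**Figure D4:**
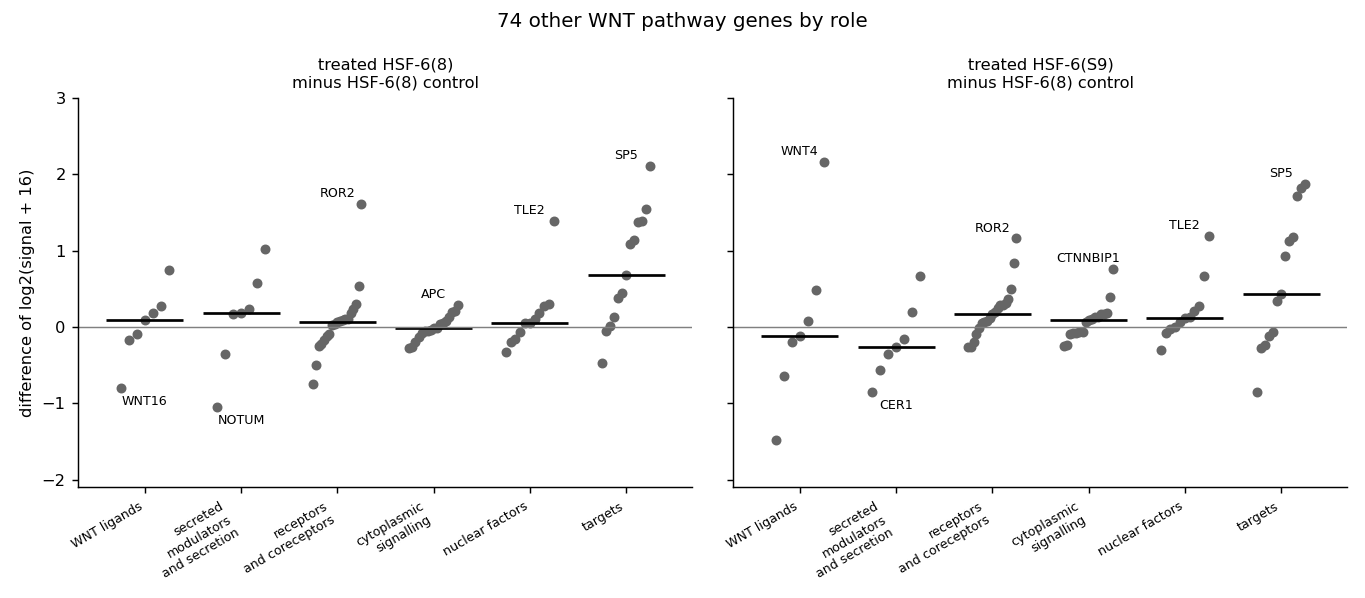
Log2 difference of each of the 74 other WNT pathway genes that passed the filter, by role, for the treated groups against HSF-6(8) control; each point is 1 gene, each bar a role's median, and none was called. Most genes lie near 0, and SP5 at 1.88 and 2.11 and WNT4 at 2.16 are among the points furthest from it.

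Finally, the probe sets whose pattern over the 9 arrays was nearest to DKK1 and LEF1 were sought by the root mean square difference of log2(signal + 16) after each probe set's own mean was removed. Nearest to DKK1 were GPAT2 at 0.291, TCEAL2 at 0.294, BEX5 at 0.331, ZNF626 at 0.338 and ASTE1 at 0.377. GPAT2 averaged 352 in treated HSF-6(S9), 377 in treated HSF-6(8) and 9.74 in control, and BEX5 549, 560 and 33.5 in the same order of groups. Nearest to LEF1 were RSPO3 at 0.425, GAD1 at 0.435, ZNF703 at 0.440, NRP2 at 0.481 and ZEB1 at 0.491. GAD1 averaged 387 in treated HSF-6(S9), 469 in treated HSF-6(8) and 45.4 in control. All of these patterns share the separation of the treated arrays from the control arrays.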

How the data were processed

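Total RNA was measured on 9 Affymetrix arrays. Per the submitters' processing notes, the deposited intensity values were made by the authors with Affymetrix Expression Console and MAS5, on a linear scale. Trimmed means (2% off each end) lay between 500.061 and 500.076 and array medians between 64.8 and 82.9. Precision is limited by the number of arrays. Gene symbols came from GEO's platform annotation, with 41091 probe sets of 1 gene, 1801 of several and 11721 of none, and 62 controls left out. limma 3.58.1 in R 4.3.3 was fitted per probe set to log2(signal + 16) over all 9 arrays, with 6 residual and 3.2 prior degrees of freedom, after keeping 29328 probe sets with 3 or more arrays above their own median. The fit was tested on simulated data. A gene's leading probe set is the brightest. The 10 genes and all lists were chosen with earlier results of these data known. Other WNT genes were named as the 2 widest differences per role and comparison, and neighbours as the 5 nearest patterns. POU5F1, TDGF1, WNT3, WNT3A, PORCN, FZD8, TCF7 and EPHB2 were not analysed here. The prime marks of the array titles were used as replicate numbers. Arrays with the same mark deviated together in all 9 pairs across groups (r from 0.124 to 0.585, across probe sets). The third arrays did so most, at 0.405 to 0.585. First and second arrays had r of 0.124 to 0.319 with the same mark and of 0.061 to 0.383 across marks. These values thus set the third arrays apart and do not show that first and second arrays are paired by mark. The main fit had no term for the mark, which entered only in the alternatives. The alternatives were 1 or 64 added before the logarithm, no filter, a 75th percentile filter, 1 probe set per gene, quantile normalization, the replicate block, the third arrays as a batch, first and second arrays only, and leaving out each array.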

Additional observations from a re-analysis of the deposited data

How the results depend on the processing

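The count of probe sets called was 114 in treated HSF-6(S9) against HSF-6(8) control, 88 in treated HSF-6(8) against control and 0 between treated HSF-6(S9) and treated HSF-6(8). With the replicate block it was 233 against control in treated HSF-6(S9) and 148 in treated HSF-6(8), with the third arrays as a batch 295 and 214, with first and second arrays only 47 and 46, and without a filter 59 and 53, in the same order. The 75th percentile filter gave 48 in treated HSF-6(8). Leaving out 1 array gave 36 to 146 in treated HSF-6(S9), 42 to 111 in treated HSF-6(8) and 0 between the treated sublines. Between these, 1 was called with 1 added before the logarithm, 1 with quantile normalization and 1 with 1 probe set per gene. Of the other WNT genes, 1 was called in treated HSF-6(S9) with 1 probe set per gene (TNFRSF19, 1.82, limma) and 1 with the replicate block (WNT16, -1.48, limma), against 0 without. Among the 10 genes the block changed the call of LEF1 alone, at 2.78 in treated HSF-6(S9) and 2.80 in treated HSF-6(8). The causes were not tested. Low signal limits LEF1 and RSPO3, whose control arrays lay below their own median.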

Other observations

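On the third treated HSF-6(8) array, CER1 and MIXL1, chosen here after their values were seen, stood far from its companions. CER1, a secreted inhibitor of Nodal, BMP and WNT, reached 4489 there, where its companions held 188 and 234, and was at 194 to 241 in treated HSF-6(S9) and 307 to 558 in control. MIXL1, a homeobox gene of the primitive streak, reached 1541 there, where its companions held 38.4 and 78.1, and was at 52.4 to 92.0 in treated HSF-6(S9) and 72.2 to 85.4 in control. Some genes of the mesoderm and primitive streak list also stood high there. TBXT had 884, with 104.9 and 98.9 on the companions, and GSC 224.9, with 1.9 and 3.2. LHX1 had 101.5, with 27.9 and 4.2 on the companions. SNAI1 and TBX6 did not follow. SNAI1 was at 87.9 there and at 114.9 and 174.6 on the companions, and TBX6 at 97.3 there and at 132.3 and 131.8. DKK1 had its highest signal of the 9 arrays there, 3736, with 2906 and 2870 on the companions. WLS 221958_s_at was at 1480 there, below the 1567 and 1845 of the companions. On the third treated HSF-6(S9) array DKK1 was also above its companions, at 3464 against 2752 and 2122, while TBXT was at 80.7 and MIXL1 at 92.0. A link between DKK1 and the streak genes was not tested.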
